A study of Rattus norvegicus with 50 samples.

Results

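Neutrophil genes of the rat lung were followed as a set of 10 named members in 50 lungs: the mature-cell genes S100a8, S100a9 and Csf3r, the granule genes of neutrophil precursors Mpo, Elane and Camp, and Itgam, Fpr1, Lcn2 and Ltf. A member was taken as the array probe set that the platform annotation names for it, whatever its value. This gave 9 members with 1 probe set each, of 14557 named genes on the array. No probe set was named for Mpo, which was not analysed here. The granule side of the contrast is therefore Elane and Camp. Of the 9 measured members, 7 (Itgam, Camp, S100a8, S100a9, Csf3r, Lcn2 and Fpr1) varied enough over the lungs to enter the test, which needed a variance of at least 0.05 on the log2 scale, and Elane and Ltf did not (variance 0.0424 and 0.0344).

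All rats were male Sprague-Dawley, 9 weeks old at purchase and older when the lungs were taken. The PEP rats inhaled the particles (printer-emitted particles, PEPs) and gaseous pollutants given off by laser printer B1 through the whole body for 5 hours a day, and the Air rats inhaled HEPA-filtered room air in the same kind of chamber. There were 5 PEP and 5 Air lungs at each of days 1, 5 and 9, and 6 PEP and 6 Air lungs at day 21. A further 4 PEP and 4 Air lungs of day 21 came from rats that carried a radio telemetry implant (day 21 with implant). The device and the operation to place it cannot be told apart. The description and the extraction text of the samples speak of blood, while the title and source say lung. Sftpc, the surfactant protein gene of the alveolar type II cell, lay between 13.04 and 13.21 on the log2 scale and above the array median in 50 of 50 lungs.

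Neutrophils are short-lived white cells made in the bone marrow. A precursor fills its granules in waves, first with Mpo (myeloperoxidase) and Elane (neutrophil elastase), then with Ltf (lactoferrin), Lcn2 (lipocalin 2) and Camp (the cathelicidin antimicrobial peptide), and largely stops transcribing these genes before it leaves for the blood. The mature cell keeps S100a8 and S100a9, which encode the subunits of calprotectin, the receptor for the growth factor G-CSF (Csf3r), the formyl peptide receptor (Fpr1) and the integrin alpha chain CD11b (Itgam). The lung holds a large pool of mature neutrophils in its capillaries. Itgam is shared with monocytes, macrophages and NK cells, and Lcn2 is also made by airway and alveolar epithelium.

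The promoters of 3 members are shown because S100a9 and Csf3r stood for the genes that varied together over the lungs, and Camp for the granule gene with the widest difference at day 1. Each run is the RefSeq window of assembly GRCr8 from 250 bases before the start site to 50 bases after it, written 5′ to 3′ along the gene's strand. Capitals mark a match to GAGGAA, the core letters of PU.1-type sites, or to TATAAA, the TATA motif, on either strand. The reverse of the first reads TTCCTC, and Camp holds neither.
S100a9, chr2:178490573-178490872, minus strand: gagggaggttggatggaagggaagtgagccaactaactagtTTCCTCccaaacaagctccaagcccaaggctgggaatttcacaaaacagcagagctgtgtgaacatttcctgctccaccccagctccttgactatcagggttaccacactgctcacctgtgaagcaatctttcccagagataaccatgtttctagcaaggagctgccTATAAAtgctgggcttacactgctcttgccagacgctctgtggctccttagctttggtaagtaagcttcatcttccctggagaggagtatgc
Csf3r, chr5:143582970-143583269, plus strand: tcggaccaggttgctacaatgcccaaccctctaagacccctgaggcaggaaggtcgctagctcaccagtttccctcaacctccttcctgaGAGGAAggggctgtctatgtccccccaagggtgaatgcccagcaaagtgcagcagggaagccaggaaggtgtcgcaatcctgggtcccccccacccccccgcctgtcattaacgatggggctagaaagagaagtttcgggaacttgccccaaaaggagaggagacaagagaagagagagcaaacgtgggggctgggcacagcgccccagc
Camp, chr8:118721949-118722248, minus strand: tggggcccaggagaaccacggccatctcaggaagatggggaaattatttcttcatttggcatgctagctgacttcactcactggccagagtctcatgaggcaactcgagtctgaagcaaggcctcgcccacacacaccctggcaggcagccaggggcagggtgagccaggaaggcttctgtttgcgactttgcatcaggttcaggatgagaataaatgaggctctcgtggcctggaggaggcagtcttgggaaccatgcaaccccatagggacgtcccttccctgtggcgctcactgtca

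PU.1 and the C/EBP factors are transcription factors of the myeloid lineage. GAGGAA was found in 6 of the 8 members with a promoter in the table (Itgam, S100a9, Csf3r, Lcn2, Fpr1 and Mpo; none in Camp and Ltf), where 27.6% of 33469 rat promoters hold it. A C/EBP-type match (TTGCNNAA, both strands) was found in 2 of 8 (Itgam and Lcn2), against 10.6% of all promoters, and TATAAA in S100a9 alone, 42 bases before the start site, against 14.2%. The 3 motifs do not overlap each other in these windows. S100a8 and Elane were not in the promoter table. S100a8 (chr2:178464095-178465223) and S100a9 (chr2:178487941-178490622) lie near each other in GRCr8. These matches are a description of letters and carry no test.

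Values are log2 intensities after robust multi-array averaging, where 1 unit is a doubling, and levels of different probe sets are not set against each other. Array medians lay between 4.92 and 5.11. S100a9 and Lcn2 lay above the median of their array in all 50 lungs, Csf3r in 49, Itgam in 48 and S100a8 in 34. Camp, Elane, Ltf and Fpr1 lay below it in all 50, near the dim end where this scale compresses differences. The number of arrays limits the precision. In whole lung RNA, fewer neutrophils and less RNA per neutrophil cannot be told apart.

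**Figure D1:**
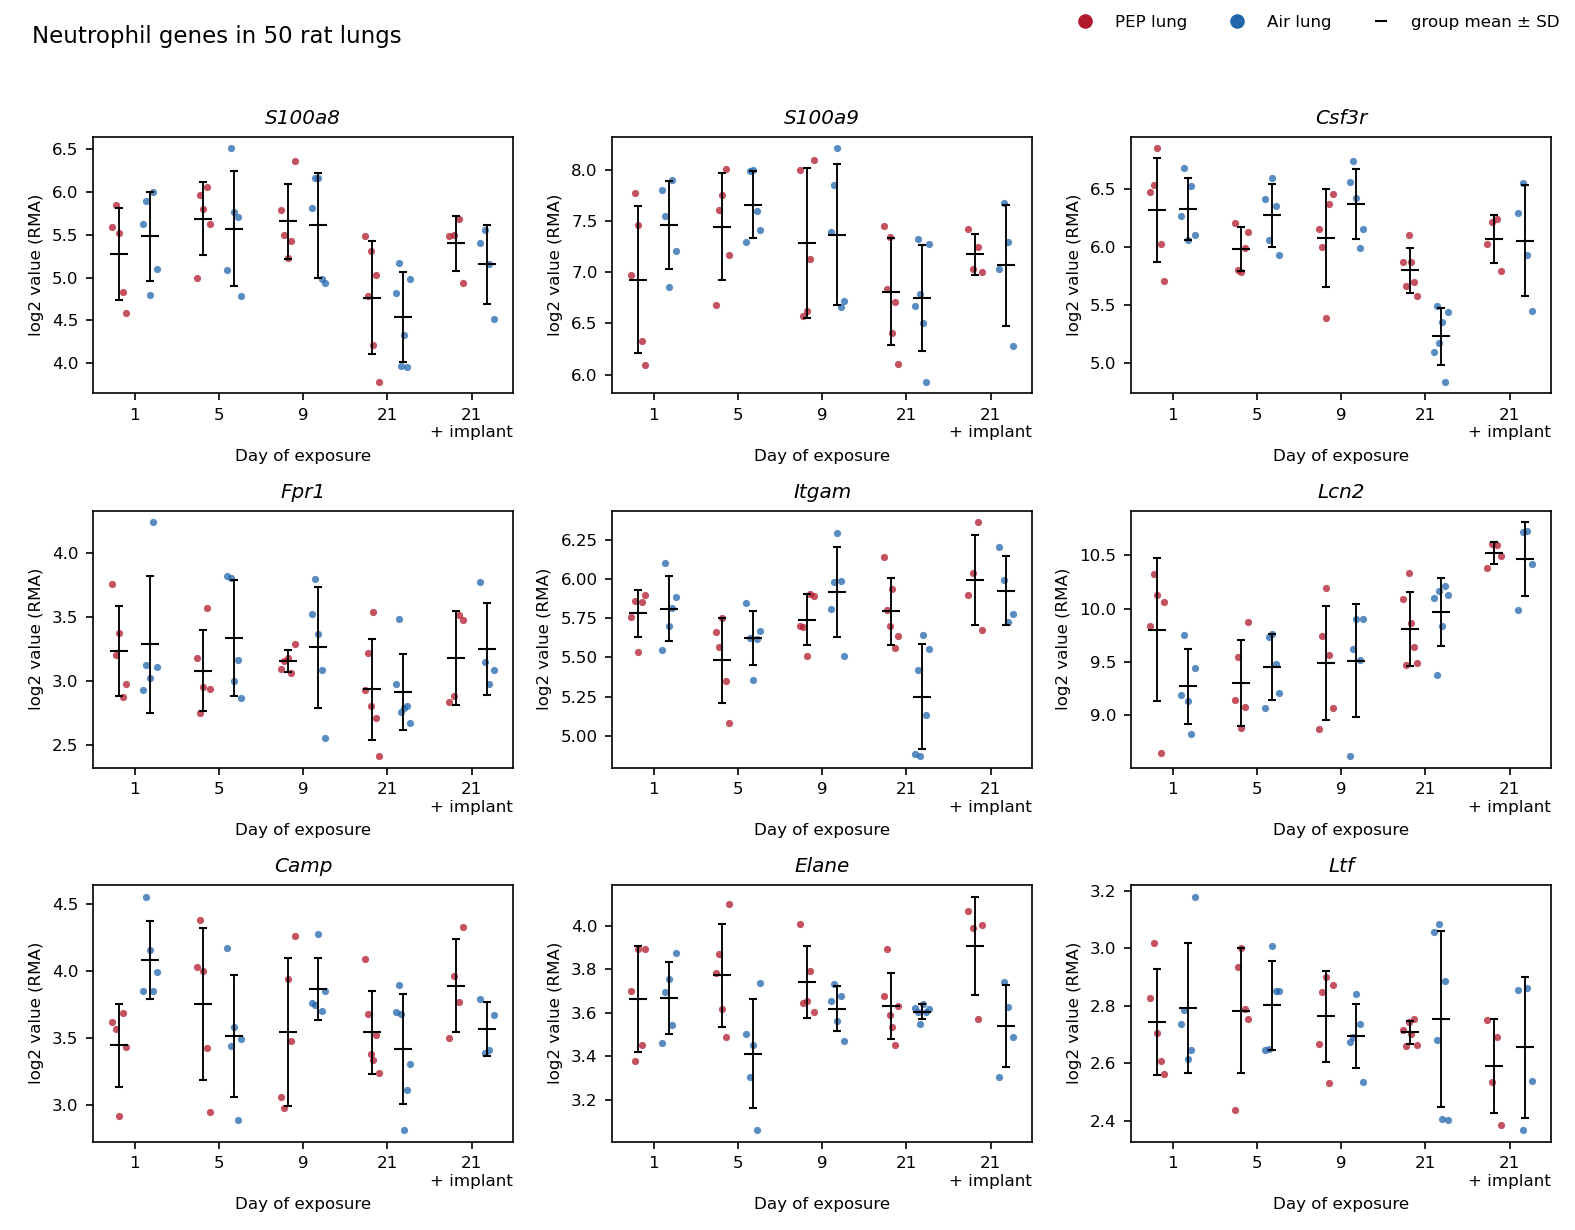
Log2 values of the 9 measured neutrophil genes in 50 lungs, by day of exposure; red points are PEP lungs, blue points Air lungs, and black bars the group mean ± SD. Csf3r and Itgam lay lowest in the Air lungs of day 21 without implant (means 5.23 and 5.25), and Lcn2 lay highest in the day 21 lungs with implant.

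The question was whether inhaled printer particles changed the neutrophil genes of the lung at any time. In none of the 5 comparisons was a tested member called at an adjusted p below 0.05 (limma over 8202 genes, Benjamini-Hochberg), that is 0 of 7 at day 1, day 5, day 9, day 21 and day 21 with implant. The background was low as well: 0% of the 8202 genes were called at days 1, 5 and 9, 0.219% (18 genes) at day 21 and 0.0122% (1 gene) at day 21 with implant. At an unadjusted p below 0.05 the members passing numbered 2 of 7 at day 1, 0 at day 5, 0 at day 9, 2 at day 21 and 0 at day 21 with implant, where 6.55%, 5.38%, 5.15%, 14.3% and 5.58% of all genes passed. A fold of 1.5 or more, whatever the p, was reached by 2 members at day 1 (Camp and S100a9, both lower), beside 1.19% of all genes.

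The direction of most members was not the same at all times. At day 1, 6 of 7 tested members had a negative difference of PEP minus Air, beside 48.3% of all genes, with a median of -0.13 on the log2 scale beside 0.01 over all genes. The counts were again 6 of 7 negative at day 5 (43.2% of all genes, median -0.24 beside 0.03; 5 of 7 with equal array weights, array centring or the replicate block, under each of which S100a8 was positive) and at day 9 (50% of all genes, median -0.14 beside 0.00). At day 21 without implant 6 of 7 were positive (46.1% of all genes, median 0.09 beside -0.02). That count includes Fpr1 at 0.002, which was negative without the variance filter, with array centring and with the replicate block. At day 21 with implant 6 of 7 were positive too (56.1% of all genes, median 0.08 beside 0.03). The F test of a PEP difference that varies over days, given below, called 0 of 7 members. Averaged over the 4 times without implant, 5 of 7 were negative (49.1% of all genes) and the median was -0.03. In that average 0 of 7 were called (0.0244% of all genes) and 0 of 7 passed an unadjusted p below 0.05 (9.56% of all genes).

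**Figure D2:**
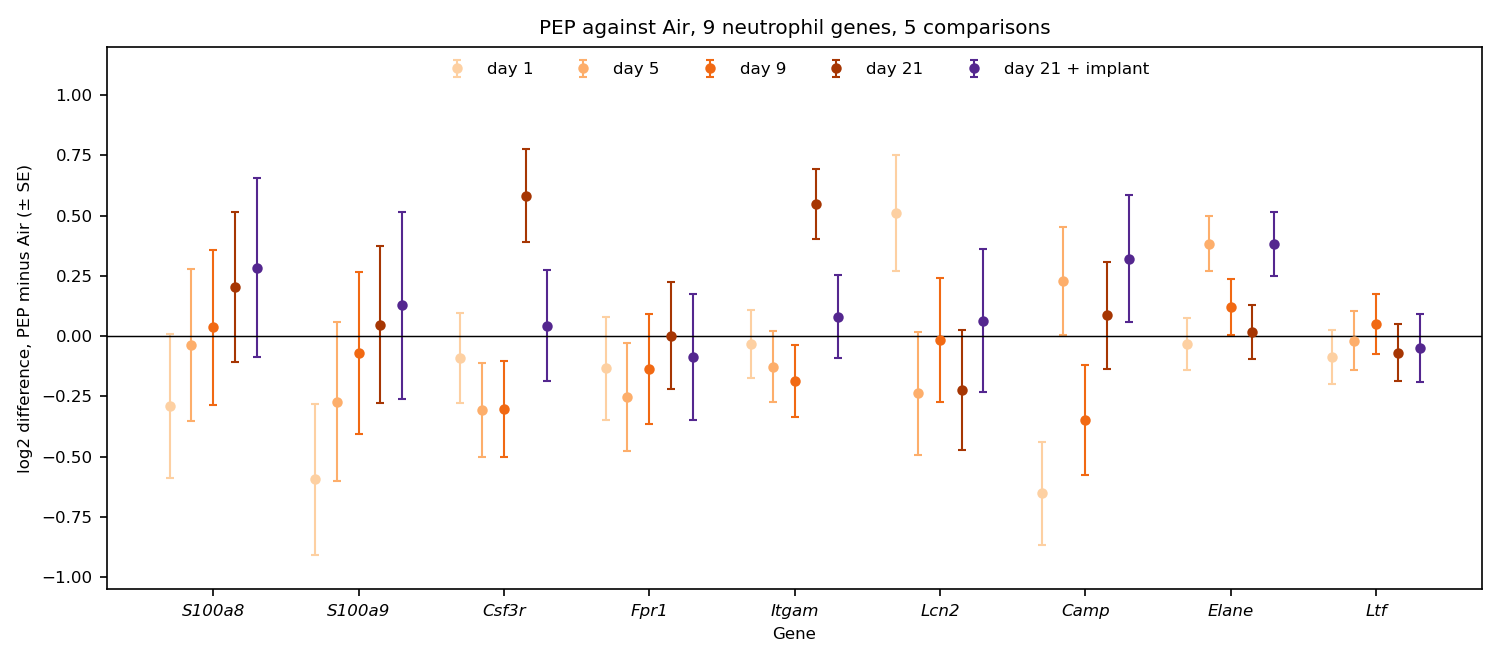
Log2 difference of PEP minus Air ± SE from the limma fit, for 9 genes (horizontal axis) at days 1, 5, 9, 21 and 21 with implant; the line at 0 is no difference. Csf3r and Itgam stand above 0 at day 21 by 0.58 and 0.55, Camp stands below 0 at day 1 by 0.65, and most other intervals of 1 SE lie near or across 0.

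S100a9 at day 1 was 6.98, 7.78, 7.46, 6.33 and 6.09 in PEP lungs, against 7.80, 7.55, 6.86, 7.90 and 7.20 in Air lungs. The PEP lungs spread more widely and only 1 of 5 exceeded the Air mean, but the groups overlapped. The difference was -0.59 ± 0.31 (SE, adjusted p = 0.74, limma). S100a8, its calprotectin partner, was 5.59, 5.84, 5.52, 4.83 and 4.59 in PEP lungs at day 1, against 5.63, 5.89, 4.79, 5.99 and 5.10 in Air lungs. The groups overlapped over most of their range, and the 95% confidence interval of the difference ran from -0.89 to 0.31.

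Csf3r did not differ at day 1 beyond its spread, at 6.32 ± 0.45 in PEP lungs and 6.32 ± 0.27 in Air lungs (SD, n = 5 each). At day 5 it was 6.21, 5.79, 5.78, 5.99 and 6.13 in PEP lungs, against 6.41, 6.06, 6.59, 6.35 and 5.93 in Air lungs. All 5 PEP lungs lay below the Air mean of 6.27, and the groups overlapped. The difference was -0.31 ± 0.20 at day 5 (adjusted p = 0.923, limma) and -0.30 ± 0.20 at day 9 (adjusted p = 0.967, limma). S100a8 and S100a9 differed by -0.04 ± 0.32 and -0.27 ± 0.33 at day 5 in the weighted fit and by 0.04 ± 0.32 and -0.07 ± 0.34 at day 9. The fitted sign of S100a8 at day 5 went against the plain group means, which were 5.69 in PEP lungs and 5.57 in Air lungs, with 4 of 5 PEP lungs above the Air mean. The 95% intervals of S100a8 and S100a9 at day 9, from -0.61 to 0.68 and from -0.74 to 0.61, still hold differences of over 0.6 log2 units either way, so that equal levels were not shown.

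At day 21 Csf3r had a lowest, median and highest value of 5.58, 5.78 and 6.10 in the 6 PEP lungs, against 4.83, 5.26 and 5.49 in the 6 Air lungs. Every PEP lung lay above every Air lung, and 0.671% of all genes separated in this direction. The difference was 0.58 ± 0.19 (adjusted p = 0.176, limma), short of the threshold. The intervals of S100a8 and S100a9 included 0. The difference was 0.20 ± 0.31 for S100a8 (95% interval -0.42 to 0.83) and 0.05 ± 0.33 for S100a9 (-0.61 to 0.70), with 4 and 3 of 6 PEP lungs above the Air mean. With implant, Csf3r was 6.02, 6.21, 6.24 and 5.79 in PEP lungs, against 6.29, 6.54, 5.92 and 5.45 in Air lungs, and the PEP range lay inside the Air range.

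Itgam showed the smallest p among the members in any PEP comparison. At day 21 its lowest, median and highest values were 5.56, 5.75 and 6.14 in PEP lungs, against 4.87, 5.28 and 5.64 in Air lungs. All 6 PEP lungs exceeded the Air mean, and the groups overlapped at their edges. The difference was 0.55 ± 0.15 (1.46-fold, adjusted p = 0.0791, limma). It was called without Air replicate 4 of day 21 (adjusted p = 0.0491, limma) and when dim genes were left out (adjusted p = 0.0238, limma). At days 1, 5 and 9 Itgam differed by -0.03, -0.13 and -0.19, and with implant by 0.08 ± 0.17.

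Whether the PEP difference varied over days 1, 5, 9 and 21 was tested by an F test, which called 0 of 7 members and 0% of all genes. At an unadjusted p below 0.05 it passed 3 of 7 members and 7.99% of all genes. These were Itgam (adjusted p = 0.518, limma), Csf3r (adjusted p = 0.582, limma) and Camp (adjusted p = 0.612, limma). The PEP difference with implant minus that without implant at day 21 was -0.47 ± 0.23 for Itgam (adjusted p = 0.724, limma) and -0.54 ± 0.30 for Csf3r (adjusted p = 0.762, limma), with 0 of 7 members and 0% of all genes called. At an unadjusted p below 0.05 it passed Itgam alone, 1 of 7, beside 6.75% of all genes.

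At day 21 genes of some other leukocytes stood the same way as Csf3r and Itgam. Of the markers tested, 9 of 10 T cell, 9 of 9 NK cell and 7 of 8 monocyte and macrophage genes had a positive difference of PEP minus Air, with medians of 0.54, 0.45 and 0.18, and 1 of them, the T cell gene Cd247, was called (0.62 ± 0.14, adjusted p = 0.0406, limma). The T cell score, the mean of the centred marker values, ran from -0.15 to 0.15 in PEP lungs and from -0.79 to -0.32 in Air lungs. The monocyte and macrophage score ran from -0.16 to 0.15 in PEP lungs and from -0.28 to -0.06 in Air lungs. Airway secretory markers went the other way, negative in 6 of 6 with a median of -1.19, but no secretory marker was called. Their score ran from -1.20 to 1.35 in PEP lungs and from -0.97 to 1.99 in Air lungs, with wide overlap. The eosinophil score averaged -0.10 in PEP lungs and -0.07 in Air lungs, with overlapping groups. The mast cell and basophil score averaged -0.27 and -0.20 and the B cell score -0.11 and -0.44, again with overlap. The part of these cells in the Itgam and Csf3r differences was not tested.

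Camp at day 1 was 3.62, 3.56, 2.91, 3.68 and 3.43 in PEP lungs, against 3.85, 4.55, 4.15, 3.85 and 3.99 in Air lungs. All PEP lungs lay below all Air lungs, and 0.427% of genes separated in this direction. The difference was -0.65 ± 0.21 (0.64-fold, adjusted p = 0.599, limma), not called, and these values lie below the array median. One PEP lung of day 1, replicate 1, carried a high signal of liver genes. Alb, the albumin gene, was 11.89 there and at most 5.96 in any other lung, and all 6 hepatocyte markers measured were highest in it. Without that lung the Camp difference was -0.67 (adjusted p = 0.66, limma), and 0 of 7 members were called.

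Camp did not keep this direction. It differed by 0.23 ± 0.23 at day 5, -0.35 ± 0.23 at day 9, 0.09 ± 0.22 at day 21 and 0.32 ± 0.26 at day 21 with implant, with overlapping groups each time. At day 9 its PEP lungs were 3.06, 2.97, 3.94, 3.48 and 4.26, against 3.76, 3.75, 4.27, 3.70 and 3.85 in Air lungs, so that 3 PEP lungs lay below all Air lungs and the other two above all but 1 of them.

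Elane was tested only in the fit without the variance filter (14557 genes). At day 5 it was 3.78, 3.87, 3.62, 3.49 and 4.10 in PEP lungs, against 3.50, 3.31, 3.45, 3.06 and 3.74 in Air lungs. All 5 PEP lungs exceeded the Air mean, with overlap, and the difference was 0.38 ± 0.11 (adjusted p = 0.81, limma). With implant it was 4.07, 3.99, 3.57 and 4.0 in PEP lungs, against 3.30, 3.74, 3.63 and 3.49 in Air lungs, a difference of 0.38 ± 0.13 (adjusted p = 0.651, limma). At days 1, 9 and 21 it differed by -0.03, 0.12 and 0.02. Ltf, the iron-binding granule protein gene, lay between 2.37 and 3.18 in all lungs and differed by at most 0.09 in size in any PEP comparison.

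Lcn2, an iron-siderophore binding protein of granules and of inflamed epithelium, was the only tested member with a positive difference at day 1. It was 9.84, 10.33, 10.13, 8.64 and 10.06 in PEP lungs, against 9.19, 9.76, 9.14, 8.82 and 9.44 in Air lungs. Replicate 4 was the lowest lung of both groups, while the other 4 PEP lungs lay above every Air lung. The difference was 0.51 ± 0.24 (1.43-fold, adjusted p = 0.74, limma), and in the fits without 1 lung it ran from 0.35 without PEP replicate 2 (adjusted p = 0.776, limma) to 0.83 without PEP replicate 4 (adjusted p = 0.559, limma). It was -0.24 ± 0.25 at day 5, -0.02 ± 0.26 at day 9, -0.22 ± 0.25 at day 21 and 0.06 ± 0.30 with implant. Beside it at day 1, 5 of 6 airway secretory markers had a positive difference (median 0.39, 0 called), with the secretory score between -1.04 and 0.15 in PEP lungs and between -1.24 and -0.75 in Air lungs, and their part in the Lcn2 values was not tested.

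Fpr1, the receptor for bacterial formyl peptides, was dim and scattered, and its PEP difference lay between -0.25 and 0.00 in the 5 comparisons. Its 95% interval averaged over the 4 times without implant was -0.35 to 0.09. The same interval was -0.10 to 0.20 for Itgam, -0.22 to 0.17 for Csf3r, -0.34 to 0.29 for S100a8, -0.55 to 0.11 for S100a9, -0.24 to 0.26 for Lcn2 and -0.39 to 0.05 for Camp. The interval for Ltf was -0.15 to 0.09 and that for Elane 0.01 to 0.24 (adjusted p = 0.337, limma).

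To set the sides against each other, each gene was centred on its mean over the 50 lungs, and the mean of Elane and Camp was subtracted from the mean of S100a8, S100a9 and Csf3r. This mature minus granule value was 0.11 ± 0.64 in PEP lungs and 0.04 ± 0.48 in Air lungs at day 1, 0.09 ± 0.45 in PEP lungs and 0.52 ± 0.57 in Air lungs at day 5, and 0.18 ± 0.46 in PEP lungs and 0.19 ± 0.45 in Air lungs at day 9 (SD, n = 5 each). At day 21 it was -0.31 ± 0.37 in PEP lungs and -0.52 ± 0.34 in Air lungs (n = 6 each), and with implant -0.20 ± 0.42 in PEP lungs and 0.03 ± 0.51 in Air lungs (n = 4 each). The groups overlapped in all 5 comparisons, and no difference exceeded the pooled SD with these genes. At day 5 it did with Fpr1 and Itgam added to the mature side (-0.46 against a pooled SD of 0.41) and, barely, without Camp (-0.488 against 0.486), still with overlapping groups. At day 1 the sign of the PEP minus Air difference depended on the genes chosen. It was 0.07 with these genes and 0.15 with Fpr1 and Itgam added. With Lcn2 and Ltf added to the granule side it was -0.21, and without Camp -0.25. With against without implant in Air lungs the difference was 0.55, above the pooled SD of 0.41, and the groups overlapped. The mature score alone was lowest at day 21 without implant, at -0.37 ± 0.43 in PEP lungs and -0.66 ± 0.40 in Air lungs.

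**Figure D3:**
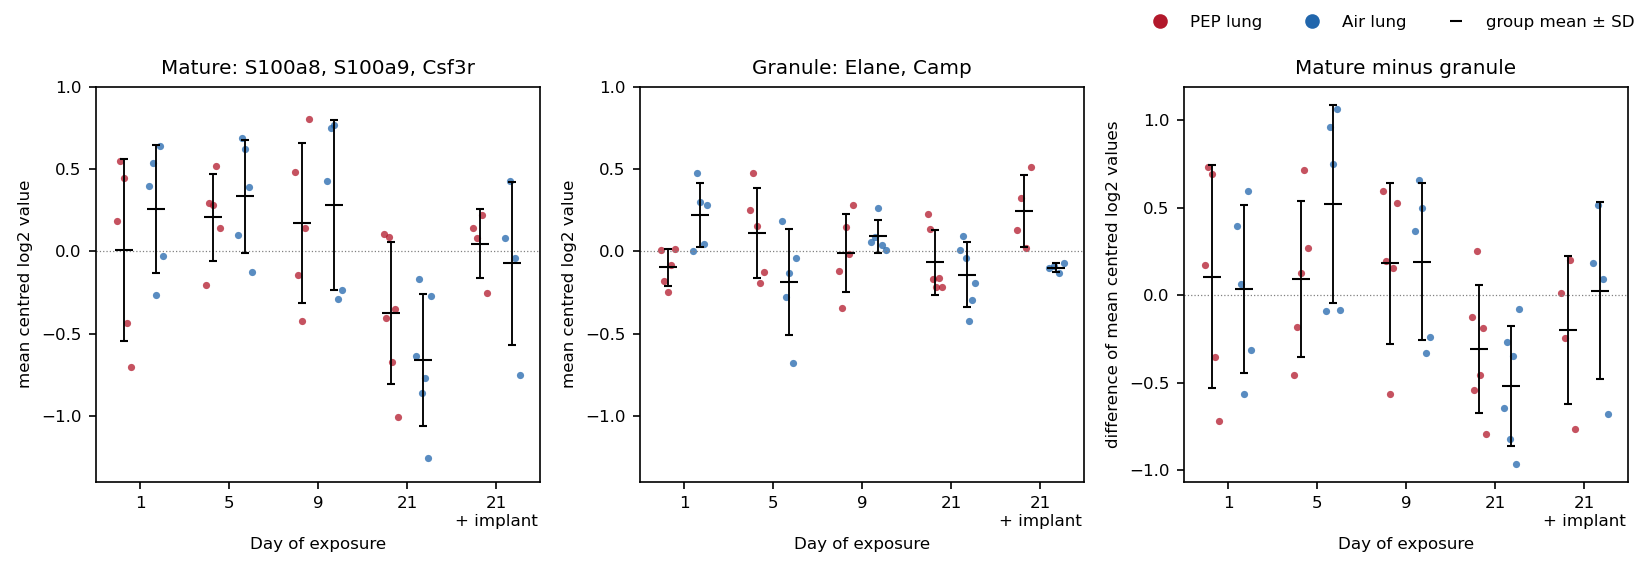
Mean centred log2 values of the mature genes (left), the granule genes (middle) and their difference (right) in each lung by day of exposure; red points are PEP lungs, blue points Air lungs, black bars the group mean ± SD. The mature score lies below 0 at day 21 without implant (group means -0.37 and -0.66 for PEP and Air) and lies near 0 with implant, while the group means of the granule score run from -0.19 to 0.25.

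Among control lungs alone, an F test over days 1, 5, 9 and 21 called 3 of 7 members, where 18.5% of all genes were called. They were Csf3r (adjusted p = 4.26e-05), Itgam (adjusted p = 0.00174) and S100a8 (adjusted p = 0.0129, limma). The rat's age and its time in the chambers grow together with the day here and cannot be told apart. Csf3r was 6.32 ± 0.27, 6.27 ± 0.27 and 6.37 ± 0.30 in Air lungs of days 1, 5 and 9 (SD, n = 5 each) and 5.23 ± 0.25 at day 21 (n = 6). The day 21 lungs, at most 5.49, lay below every Air lung of the earlier days, of which the lowest had 5.93. Itgam was 5.81 ± 0.21, 5.62 ± 0.17, 5.92 ± 0.29 and 5.25 ± 0.34 at the same times, and S100a8 was 5.48 ± 0.52, 5.57 ± 0.67, 5.61 ± 0.61 and 4.54 ± 0.53. The S100a8 call was lost without Air replicate 3 (adjusted p = 0.0605, limma) or replicate 5 (adjusted p = 0.0764, limma) of day 21.

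The 4 other tested members did not pass in Air lungs, though 6 of 7 had an unadjusted p below 0.05, beside 31.9% of all genes. Camp was at 4.08 ± 0.29, 3.51 ± 0.46, 3.86 ± 0.23 and 3.41 ± 0.41 (adjusted p = 0.0515, limma) and passed in 5 of the fits that left out 1 lung, the lowest adjusted p (limma) being 0.0153 without Air replicate 1 of day 5. S100a9 stood at 7.46 ± 0.43, 7.66 ± 0.32, 7.37 ± 0.69 and 6.75 ± 0.52 (adjusted p = 0.108, limma). Lcn2 stood higher at the last day, at 9.27 ± 0.35, 9.45 ± 0.31, 9.51 ± 0.53 and 9.97 ± 0.32 (adjusted p = 0.142, limma). In PEP lungs the same F test called 0 of 7 members, where 4.82% of all genes were called, and 1 of 7 passed an unadjusted p below 0.05, beside 19.7%. The smallest p belonged to S100a8 (adjusted p = 0.117, limma), at 5.27 ± 0.54, 5.69 ± 0.42, 5.66 ± 0.44 and 4.77 ± 0.66. Whether the course over days differed between PEP and Air was the F test of the PEP difference, with 0 of 7 called.

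The Air lungs of day 21 without implant were the lowest of the 10 groups for Itgam, Camp, S100a8, S100a9, Csf3r and Fpr1. For Csf3r the next group up, PEP at day 21 (5.79 ± 0.19), lay above it by more than the larger SD of the pair. For Itgam the next was PEP at day 5 (5.48 ± 0.27), for S100a8 PEP at day 21 (4.77 ± 0.66), for S100a9 PEP at day 21 (6.81 ± 0.52) and for Fpr1 PEP at day 21 (2.94 ± 0.39), and none of these neighbours differed from it beyond its spread. The highest group was PEP at day 21 with implant for Itgam (5.99 ± 0.29), Lcn2 (10.52 ± 0.10) and Elane (3.91 ± 0.23), PEP at day 5 for S100a8 (5.69 ± 0.42), and Air at day 5 for S100a9 (7.66 ± 0.32), Fpr1 (3.33 ± 0.45) and Ltf (2.80 ± 0.15). Air at day 9 was highest for Csf3r (6.37 ± 0.30) and Air at day 1 for Camp (4.08 ± 0.29). In the order of the 10 groups the only neighbours further apart than the larger SD were the last pair of Csf3r and, for Lcn2, Air at day 21 with implant (10.46 ± 0.35) and Air at day 21 (9.97 ± 0.32).

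Markers of other cells also varied over days in Air lungs. T cell markers were called over days in 8 of 10 and monocyte and macrophage markers in 4 of 8 tested genes. Over all genes 18.5% were called in this test. The T cell score of Air lungs averaged -0.02, -0.08, 0.17 and -0.53 at days 1, 5, 9 and 21. Erythroid markers were called in 5 of 7, with an Air score of 0.35, 0.18, 0.13 and -0.38, so that red cell signal was also lowest at day 21. Fewer NK cell (1 of 9), B cell (1 of 4), eosinophil (1 of 7) and mast cell and basophil (2 of 7) genes were called, closer to the 18.5% of all genes. The mast cell and basophil score was -0.20 at day 21 and lower, at -0.26, at day 5. Motile cilia (4 of 4), airway secretory (4 of 6) and cardiac muscle markers (3 of 6) were called too, and their Air scores were lowest at day 1 (-0.79, -0.99 and -1.38) and highest at day 21 (0.51, 0.63 and 1.06). Their part in the neutrophil values was not tested.

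In Air lungs of day 21, with against without implant, 2 of 7 members were called and both were higher, where 6.91% of all genes were called and 4.77% were called higher. These lungs without implant are the same ones that served as controls for PEP at day 21. Itgam was 6.21, 6.0, 5.73 and 5.78 in Air lungs with implant, against a lowest, median and highest value of 4.87, 5.28 and 5.64 in Air lungs without it. The groups did not overlap (4.73% of genes separated upward), and the difference was 0.71 ± 0.16 (1.63-fold; adjusted p = 0.00442, limma). Csf3r was 6.29, 6.54, 5.92 and 5.45 with implant, against 4.83, 5.26 and 5.49 without, so that only its lowest implant lung lay within the range of the other group. The difference was 0.84 ± 0.21 (1.79-fold; adjusted p = 0.0107, limma).

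The Csf3r call rested on few lungs: it was lost without Air replicate 1 (adjusted p = 0.0754, limma) or replicate 2 (0.59, adjusted p = 0.124, limma) of the implant group. Both calls were lost in a fit on these 2 groups alone, with adjusted p = 0.0501 for Itgam and 0.0502 for Csf3r (limma). The other 5 tested members had positive differences that did not pass: S100a8 0.63 ± 0.35, Lcn2 0.45 ± 0.28, Fpr1 0.35 ± 0.25, S100a9 0.33 ± 0.36 and Camp 0.15 ± 0.25. The median over the 7 was 0.45, beside -0.05 over all genes, of which 43.7% were positive. At an unadjusted p below 0.05 the same 2 of 7 passed, beside 22.4% of all genes. Elane and Ltf differed by -0.07 and -0.14.

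In PEP lungs of day 21, with against without implant, 0 of 7 members were called, where 3.8% of all genes were called. All 7 differences were positive, with a median of 0.39 beside 0.02 over all genes, of which 53.1% were positive. At an unadjusted p below 0.05, and likewise at a fold of 1.5 or more, 2 of 7 (Lcn2 and S100a8) passed, beside 16.9% and 4.89% of all genes. Lcn2 was 10.38, 10.61, 10.59 and 10.49 with implant, against a lowest, median and highest value of 9.47, 9.75 and 10.33 without it. The groups did not overlap (3.27% of genes separated upward), and the difference was 0.74 ± 0.27 (1.67-fold, adjusted p = 0.123, limma). S100a8 was 5.48, 5.50, 5.68 and 4.94 with implant, against 3.78, 4.91 and 5.48 without, a difference of 0.71 ± 0.34 (adjusted p = 0.274, limma). Itgam and Csf3r differed by 0.24 ± 0.16 and 0.30 ± 0.21.

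With against without implant in Air lungs, T cell markers were called higher in 8 of 10, NK cell markers in 4 of 9 and B cell markers in 2 of 4 tested genes. Over all genes 4.77% were called higher. Of 8 monocyte and macrophage markers, Cx3cr1 (1.19 ± 0.25) and Adgre1 (0.84 ± 0.18) were called higher and C1qa (-0.55 ± 0.16) lower. Of the mast cell and basophil markers, Cpa3 was called higher (1.29 ± 0.42, adjusted p = 0.0497, limma). The score of these markers ran from 0.24 to 0.67 with implant and from -0.32 to -0.09 without. The T cell score ran from 0.13 to 0.62 with implant and from -0.79 to -0.32 without, and the monocyte and macrophage score from -0.12 to 0.27 with implant and from -0.28 to -0.06 without. With against without implant in PEP lungs, the markers called were Tpsb2 and Cpa3 of mast cells, Cd2 of T cells and Klrd1 of NK cells, all higher. The part of these cells in the differences of the members was not tested.

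Of 57 further genes of the neutrophil programme listed by role, 40 were measured and 29 entered the test. None of the 29 was called in any comparison of PEP with Air. The smallest p at day 1 belonged to Fcgr3a, an Fc receptor of mature cells, at 8.50 ± 0.14 in PEP lungs and 8.12 ± 0.26 in Air lungs (adjusted p = 0.633, limma), and at day 5 to Cxcl1, a chemokine that draws neutrophils, at 6.52 ± 0.31 in PEP lungs and 7.08 ± 0.47 in Air lungs (adjusted p = 0.828, limma). At day 21 it belonged to Rac2, a GTPase of the neutrophil oxidase, at 9.17 ± 0.16 in PEP lungs and 8.88 ± 0.27 in Air lungs (adjusted p = 0.248, limma).

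With against without implant in Air lungs, 5 of the 29 were called, all higher, beside 4.77% of all genes. Rac2 rose by 0.64 ± 0.12, Lilrb4, an inhibitory receptor of myeloid cells, by 0.98 ± 0.25, and Csf2rb, the shared beta chain of the GM-CSF receptor, by 0.55 ± 0.16. Mmp8, the neutrophil collagenase of the granules, rose to 5.96 ± 0.12 with implant, against 5.06 ± 0.56 without it, and Il1b, the gene of interleukin 1 beta, to 6.23 ± 0.42, against 5.51 ± 0.21 (adjusted p = 0.035 and 0.0469, limma). Surface genes of mature cells were positive in 9 of 9, of which 2 were called, and primary granule genes were positive in 2 of 3, with 0 called. Markers of T cells and NK cells were also called higher in this comparison, and the part of other leukocytes in these genes was not tested. Over days in Air lungs 7 of the 29 were called (Mmp8, Rac2, Clec4e, Csf2rb, Cxcr2, Cxcl1 and Cxcl2), beside 18.5% of all genes.

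Over the 50 lungs, Pearson's r and Spearman's rho were computed for the 36 pairs of members, with permutation p-values from 100000 resamples adjusted over the pairs. S100a8 and S100a9 went together most closely (r = 0.86, rho = 0.85; adjusted p = 0.00012, permutation, from the smallest p the resamples allow), and r was 0.83 without the 2 lungs of most extreme S100a8. Csf3r followed both, with r = 0.69 (rho = 0.68) for S100a8 and r = 0.615 (rho = 0.60) for S100a9. These relations held with group means removed, at r = 0.86, 0.60 and 0.63, so they were present among lungs of the same group. Itgam followed Csf3r with r = 0.52 (rho = 0.42; adjusted p = 0.00081, permutation), but with r = 0.28 once group means were removed (adjusted p = 0.268, permutation). Fpr1 followed the 3 mature genes with r of 0.38 to 0.48, and 0.29 to 0.41 with group means removed. Of these, the pair with S100a9 passed by Pearson (adjusted p = 0.0363, permutation) and not by Spearman (adjusted p = 0.0914, permutation).

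The granule genes showed no such relation. The 6 pairs of a mature and a granule gene had r between -0.08 and 0.24, Elane and Camp had r = 0.06 with each other, and 0 of these pairs passed. Lcn2 had r between -0.20 and 0.12 with the 8 other measured members. In all, 7 of 36 pairs passed by Pearson on the values and 3 with group means removed, these 3 being the pairs of mature genes. By Spearman the counts were 6 and 4, where S100a8 with Fpr1 also passed with group means removed (adjusted p = 0.047, permutation). With each array centred on its median, 10 passed by Pearson, among them Itgam with the granule gene Camp (r = 0.38, adjusted p = 0.0281, permutation). Elane and Ltf varied least (variance 0.0424 and 0.0344), while Camp and Fpr1 (0.170 and 0.139) varied more than Itgam (0.096). Dim probe sets carry less signal, so that a low r of Elane, Ltf, Camp or Fpr1 does not show independent variation.

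**Figure D4:**
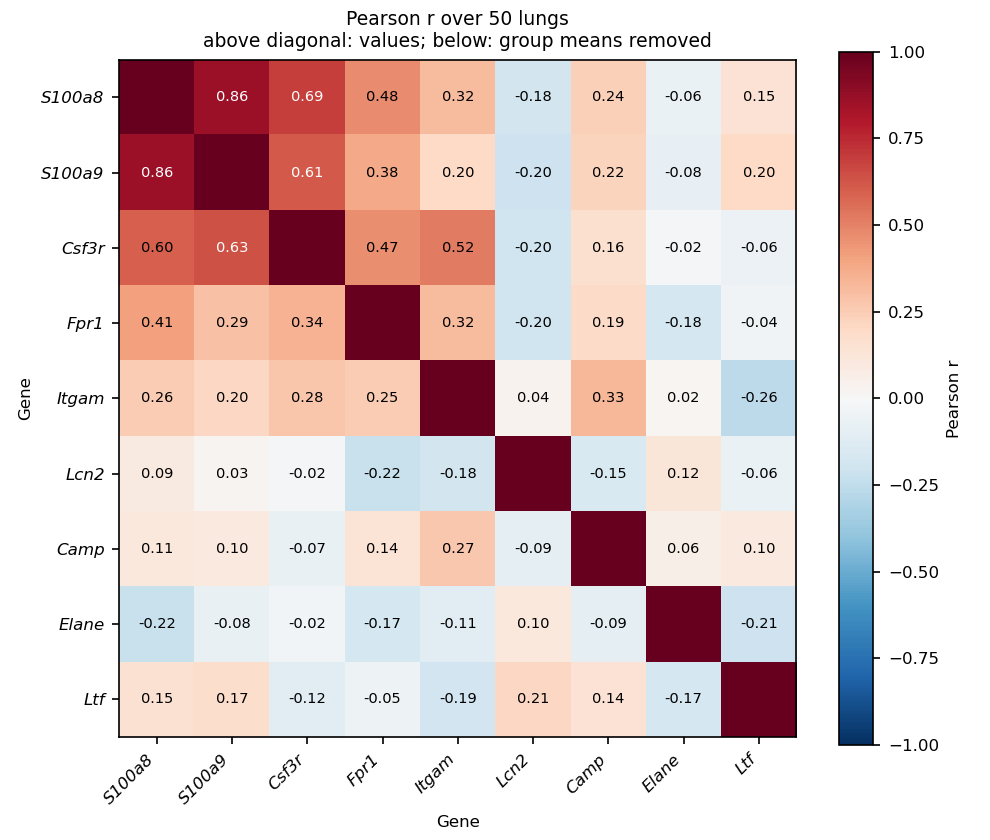
Pearson r between the 9 measured neutrophil genes over 50 lungs, on the values (above the diagonal) and with group means removed (below it); the colour scale runs from -1 to 1. S100a8, S100a9 and Csf3r form the block of high r at the upper left (0.60 to 0.86), while the rows of Lcn2, Camp, Elane and Ltf are pale.

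Genes most like the members were ranked over 8195 other tested genes by Pearson's r with the mean of the 7 tested members over 50 lungs, as a description, since lungs share array normalization and groups. The first 10 were Mmp8 (0.82), Il1b (0.72), Clec4d (0.71), Cxcr2 (0.67), Lrg1 (0.66), Pld4 (0.65), Itgb7 (0.62), Lypd8l1 (0.61), Pla2g7 (0.60) and Nlrp12 (0.59), where the median r over all genes was about 0. With group means removed the first 3 were Mmp8 (0.76), Clec4d (0.69) and Il1b (0.66). Mmp8, Il1b, Clec4d and Cxcr2 are on the programme lists. Cxcr2 is the receptor by which neutrophils follow CXC chemokines, and Clec4d a C-type lectin receptor of myeloid cells. For Lcn2 alone, looked at after its values were seen, the gene of highest r was C3, the complement component (0.69). With group means removed it was Slc16a11 (0.66), and C3 was not among the first 10.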

How the data were processed

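Lung RNA was measured on 50 Affymetrix Rat Gene ST arrays. The deposited tables hold log2 intensities for 36685 probe sets, which per the submitters' processing notes were made by robust multi-array averaging (RMA) with oligo in R 3.4, and limma was also used. Quantile normalization removes a shift shared by most genes, and dim signals are compressed. Probe sets were named by the platform annotation (14824 with 1 gene, 829 with several, not used). Of 14557 genes, 8202 had a variance of at least 0.05 over the arrays. A linear model over the 10 groups was fitted with limma 3.58.1 in R 4.3.3, with gene-by-gene array weights (0.59 to 1.71) and empirical Bayes moderation. Two-sided p-values were adjusted by Benjamini-Hochberg over all genes of a comparison, with a threshold of 0.05. The fit was tested on simulated data. Groups came from sample titles. Correlations were tested by permutation of lungs (100000 resamples). Nothing in the labels ties an array to its own rat or to a batch. A p-value of the main fit reflects only how much arrays varied within groups, pooled over the 10 groups and moderated over genes. The variation behind any p-value here may be technical. The members, the gene lists and the tests were chosen with earlier results of these data known; all members are named, and of the lists the genes called or with the smallest p. 0 columns belonged to no sample. Alternatives were the filter, weights, array centring, robust moderation, own-group fits, a replicate block, dim genes left out, single probe sets, leaving out each lung, and, added after seeing the data, gene order and REML weights.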

Additional observations from a re-analysis of the deposited data

Results flagged for a closer look

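A lung far from the rest of its group was looked for in the 90 groups of lungs given by the 9 measured members, and 5 stood out by Dixon's test at 95%, which chance gives in about 1 of 20 groups. Lcn2 in PEP lungs of day 1 had its lowest value in replicate 4, at 8.64, with the next at 9.84. Elane in PEP lungs of day 21 with implant was lowest in replicate 3, at 3.57, with the next at 3.99. Camp in Air lungs of day 9 was highest in replicate 3, at 4.27, with the next at 3.85. Fpr1 was highest in replicate 4 of the Air lungs of day 1, at 4.24, with the next at 3.13, and in replicate 2 of the Air lungs of day 21, at 3.49, with the next at 2.98. The 5 lungs were different ones, and the 3 genes among them other than Lcn2 lie below the array median.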

How the results depend on the processing

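The count of members called was 0 in each of the 5 comparisons of PEP with Air under the alternatives run, except at day 21, where it was 1 (Itgam) with dim genes left out and in the fits without 1 lung ranged from 0 to 1. For implant against none in Air lungs the count of 2 became 0 in the fit on the groups compared only and ranged from 1 to 2 without 1 lung. For PEP lungs over days the count of 0 became 1 (S100a8, adjusted p = 0.0401, limma) with dim genes left out. Counting a fold of 1.5 or more whatever the p gave 2 at day 1, 3 for implant against none in Air lungs and 2 in PEP lungs. The shares of all genes were 1.19%, 7.47% and 4.89%. Of the 36 pairs, 3 passed by Pearson with values centred within group and 10 with array centring. The mature minus granule difference of PEP and Air at day 1 changed sign with the genes chosen. It was 0.07 in the main setting, -0.21 with Lcn2 and Ltf added to the granule side, and -0.25 without Camp. For single members, apart from the fits without 1 lung, the sign turned only for differences of at most 0.04 in size. These were S100a8 at day 5 (0.12 with equal array weights, 0.00322 with array centring, 0.012 with the replicate block) and at day 9 (-0.0214 with dim genes left out). Lcn2 at day 9 turned too (0.0079 without the variance filter, 0.014 with dim genes left out). So did Fpr1 at day 21 (-0.00533 without the filter, -0.0185 with centring, -0.00376 with the block, -0.000765 by single probe sets and -0.0011 under both added settings). In the mean over times S100a8 (0.047 with equal weights) and Lcn2 (-0.0214 with dim genes left out) turned. The cause was not tested. Same-numbered lungs did not vary together throughout: r was over 0.1 in 4 of 25 PEP and Air pairs, all 4 among the 6 pairs of day 21, and in 2 of 8 pairs with and without implant. The numbers were not taken to pair the lungs, and the replicate block changed no member's call. Of 924 differences refitted without 1 lung, 87 took the other sign and 3 changed their call. Over all genes, the 18 calls of PEP against Air at day 21 became 45 without the filter, 37 with equal weights, 5 with centring, 0 in the fit on its own groups and 101 with dim genes left out, and 1 without Air replicate 3 of day 21; the 567 calls of implant against none in Air lungs became 951 without the filter and 277 on its own groups. Signal near background limits Camp, Elane, Ltf and Fpr1.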
